A study of Mus musculus with 18 samples.

Results

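The genes described here are 55 mouse genes that copy DNA or make its deoxynucleotide precursors. They were listed by their known function, and all 55 were found among the 51912 genes of the deposited expression table. The table holds RNA-seq of B-cell populations from C57BL/6 mice that lack Sh3gl1, the gene of the endocytic adaptor endophilin A2, in every cell of the body (Sh3gl1-/-) and from wild-type (WT) mice of the same strain. Transitional B cells and follicular B cells were profiled directly after isolation, the labels calling them untreated, and follicular B cells were also profiled after 14 h of culture with CD40L, the ligand by which helper T cells stimulate B cells through CD40. The time is that of the labels, and the study's text gives other durations of CD40L culture. Each of these 3 cell states was taken from both genotypes, which gave 6 groups of 3 libraries, 18 in all. The age of the sequenced animals and the sort of the transitional libraries are not given in the sources used here. The study's methods do give a flow cytometry gate for splenic transitional cells, without tying it to these libraries. No library from cells cultured without CD40L was analysed here, so that culture and CD40L cannot be told apart in the comparison of cultured with ex vivo cells.

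Replication starts at origins, where the origin recognition complex, Cdc6 and Cdt1 load a ring of Mcm proteins in a step called licensing, which geminin blocks once synthesis has begun. The kinase Cdc7 with its partner Dbf4, together with Mcm10, Cdc45 and the GINS complex, turns this ring into the active helicase, after which the primase and the polymerases alpha, delta and epsilon copy the strands with the help of the sliding clamp Pcna, its loader RFC and the single-strand binding protein RPA. Ribonucleotide reductase and thymidylate synthase supply the precursors. Many of these genes are transcribed together, shortly before and during S phase, under E2F transcription factors. Follicular B cells rest until antigen and T-cell help bring them into the cell cycle, whereas transitional B cells are recent emigrants from the marrow, where their precursors divide.

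Because E2F factors control many genes of this class, the promoters of the listed genes were searched for E2F-type words. RefSeq (GRCm38.p6) gave a promoter window of 300 bases, 250 before and 50 after the start of transcription, for 45 of the 55 genes, and 10 had none in the table. The words searched, on both strands, were TTTGGCGC, TTTCGCGC, TTTCCCGC and TTTGCCGC, none of which contains another. At least 1 of the 4 words was present for 15 of the 45 genes (33.3%), against 2.6% of all 27025 genes with a window. TTTGCCGC was in none of the windows of the 45. The 15 genes were Orc1, Cdc6, Cdt1, Mcm3, Mcm5, Mcm6, Mcm7, Gins3, Pola1, Pold1, Pold3, Pole2, Rfc3, Lig1 and Clspn. The word CCAAT, the box bound by NF-Y, was found for 27 of the 45 (60%) and for 41.1% of all genes, and TTTGAA or TTTAAA, words of cell-cycle elements, for 12 (26.7%) and for 30.6%. A match describes letters in a window and is not evidence of binding.

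One such stretch is printed for the most abundant gene with a word before its start in each of 4 roles, to show where the word sits. Not all words lay before the start. In Mcm3, Cdt1, Lig1, Clspn, Pold1, Pold3 and Pole2 words were found only after a start, and Rfc3 and Mcm7 also held a word after a start, which is not printed. The stretches run 5′ to 3′ along the gene's own strand, end at or before the start of transcription, and carry the E2F-type word (or its reverse complement) in capitals. They lie at chr5:151651209-151651258 on the minus strand for Rfc3, a subunit of the clamp loader, at chr5:138172001-138172088 on the minus strand for Mcm7, a subunit of the helicase ring, at chr8:95633478-95633558 on the plus strand for Gins3, a subunit of GINS, and at chrX:93632246-93632333 on the minus strand for Pola1, the catalytic subunit of polymerase alpha. The word ended 2 bases before the start in Rfc3, 33 in Gins3, 130 in Pola1 and 157 in Mcm7.
Rfc3: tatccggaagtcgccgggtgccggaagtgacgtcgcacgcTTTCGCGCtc
Mcm7: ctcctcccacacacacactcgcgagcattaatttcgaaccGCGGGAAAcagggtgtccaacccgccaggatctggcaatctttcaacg
Gins3: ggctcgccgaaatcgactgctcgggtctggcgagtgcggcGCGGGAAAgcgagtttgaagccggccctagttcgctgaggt
Pola1: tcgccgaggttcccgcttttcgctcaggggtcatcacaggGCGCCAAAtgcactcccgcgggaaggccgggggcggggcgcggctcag

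The libraries held between 12404665 and 18366011 counts, so that 3 counts, taken here as the floor of detection, corresponded to 0.163 to 0.242 CPM (counts scaled to library size, the same for every gene length). The 55 genes together took 0.234% to 0.641% of the counts of a library. Sh3gl1 itself had 591, 467 and 377 counts in the WT transitional libraries and 7, 4 and 11 in the Sh3gl1-/- ones. It had 528, 569 and 447 counts in WT follicular cells and 2, 3 and 1 in Sh3gl1-/- cells, and after CD40L 839, 802 and 929 against 20, 22 and 11. The genotype labels and this gene thus went together in all 18 libraries.

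The cell types were checked against marker lists. The 6 B-cell markers, led by Cd79a, a chain of the B-cell receptor, were detected in every library. Rag2, which is still expressed in the youngest B cells, had 11, 3 and 6 counts in the WT and 8, 3 and 3 in the Sh3gl1-/- transitional libraries and none in any of the 12 follicular libraries. Of the 5 transitional markers tested, 4 were higher in transitional than in follicular cells in each genotype, and 4 of 5 follicular markers were lower. RNA of other cells was present as well. Erythroid genes, led by the globin Hba-a2, summed to 7293, 9465 and 5423 TPM (transcript abundance scaled by gene length and library size) in WT transitional libraries and to 20096, 10376 and 20847 in Sh3gl1-/- ones, and to at most 789.6 after CD40L.

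The listed genes were expressed in all 6 groups, over a wide range of levels. Rfc2, a small subunit of the clamp loader, was the most abundant in every group, with a mean of 354.2 TPM ± 20.5 (SD, n = 3) in WT transitional cells, 244.7 ± 17.9 in WT follicular cells and 297.2 ± 79 after CD40L. At the other end were Mcm10, Dscc1, a subunit of an alternative clamp loader, and Dbf4, and the mean of 2 of the 55 genes lay below 1 TPM in follicular cells of either genotype. Of the 55 genes 14 overlap another protein coding gene, among them Rfc2 with Lat2 and Orc2 with Nif3l1, both on the opposite strand. Whether counting used the strand is not stated, so the levels of such genes may include reads of the other gene. The median gene had a mean of 27.6 TPM in WT transitional cells and 17.6 TPM in Sh3gl1-/- transitional cells. It had 15.7 and 15.8 TPM in WT and Sh3gl1-/- follicular cells and 48.4 and 38.4 TPM after CD40L. The map of levels shows this by gene and library.

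**Figure D1:**
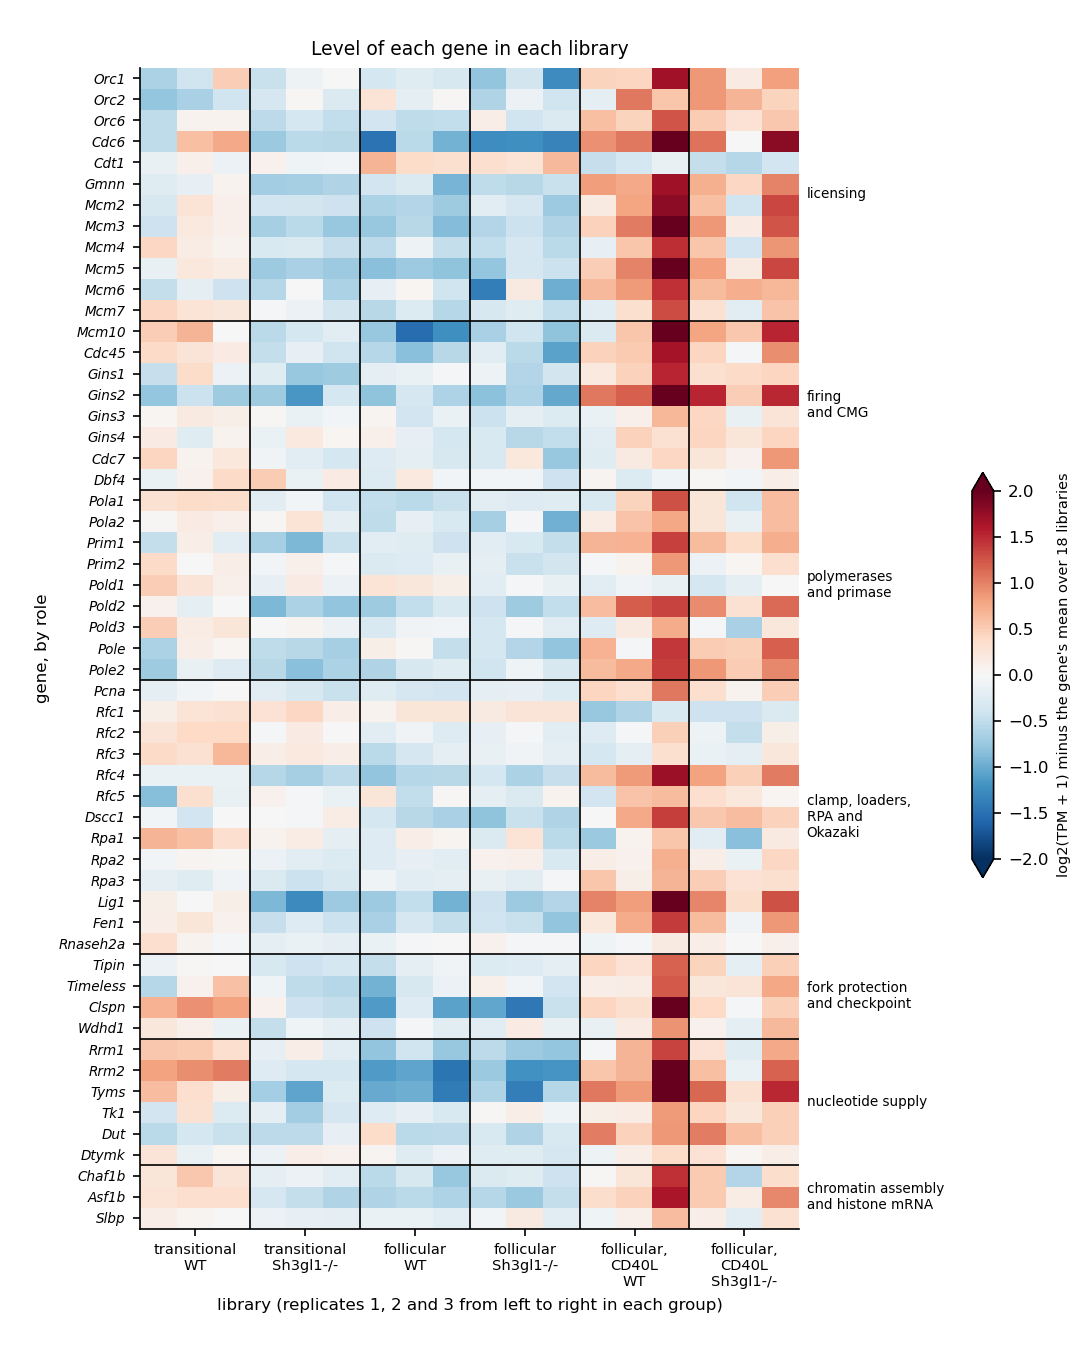
Level of the 55 genes (rows, by role) in the 18 libraries (columns), as log2(TPM + 1) minus the mean of the gene over the 18 libraries; colours stop at 2 in either direction. The CD40L libraries are high for most genes with replicate 3 of WT highest, Cdt1 and Rfc1 are low there, and the WT transitional libraries lie above the Sh3gl1-/- ones for many genes.

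Summed over the 55 genes, the level was 2444, 2487 and 2458 TPM in the 3 WT transitional libraries and 1933, 2016 and 1882 TPM in the Sh3gl1-/- ones, so the groups did not overlap. Follicular cells had 1818, 1925 and 1833 TPM in WT and 1896, 1985 and 1786 TPM in Sh3gl1-/-, and here the groups overlapped. After CD40L the sums were 2418, 2772 and 4472 TPM in WT and 2775, 2118 and 3194 TPM in Sh3gl1-/-, with wide overlap. Replicate 3 of the WT cells stood apart: of the 55 genes, 51 were highest there among the 3 WT CD40L libraries, 50 among the 6 CD40L libraries and 48 among all 18. For comparisons that use it, the counts of calls over the 55 genes, and by role in WT, are given below with and without this library, and so are the listed genes described whose call in the WT response it changed. These are bulk libraries, in which fewer cells of a type and less RNA per cell cannot be told apart.

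**Figure D2:**
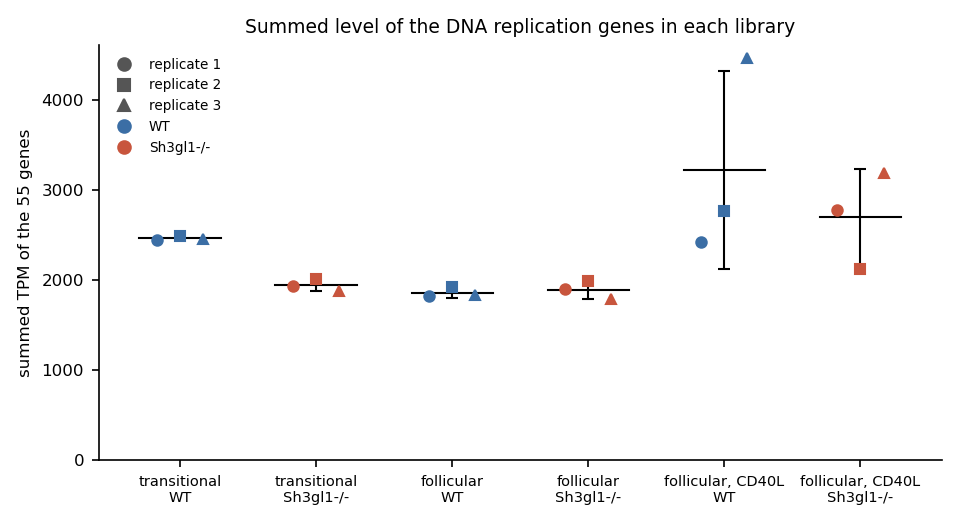
Summed TPM of the 55 genes in each library by group, with the mean (line) and SD (bar, n = 3). WT transitional libraries sit between 2444 and 2487, Sh3gl1-/- transitional libraries between 1882 and 2016, and the CD40L libraries spread from 2118 to 4472.

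The first comparison asked how culture with CD40L changed the genes in follicular cells. In WT cells 47 of the 55 genes rose and 1 fell at an adjusted p under 0.05 (edgeR quasi-likelihood test, adjusted over all 14460 genes tested), where 23.6% of all genes tested rose and 25.7% fell. The median log2 change of the 55 was 1.33, against -0.08 over all genes. In Sh3gl1-/- cells 37 rose and 2 fell, where 20.6% of all genes rose and 21.8% fell, and the median was 0.87 against -0.03. Without WT replicate 3, the WT counts were 38 and 2 with a median of 0.86, where 19.6% of all genes rose and 20.3% fell, and the Sh3gl1-/- counts of the same fit were 39 and 2 with a median of 0.88, where 20.7% rose and 21.4% fell. With all libraries of this fit, both genotypes called 38 of the genes, 10 were called in WT alone and 1 in Sh3gl1-/- alone, and 6 (Gins2, Dbf4, Pold1, Rfc5, Rpa1 and Rnaseh2a) in neither. Without WT replicate 3, Pola1, Rpa2, Chaf1b and Slbp were called in WT alone. Cdc7, Gins1, Gins3, Gins4 and Dtymk were then called in Sh3gl1-/- alone. Of the markers of other cells, all 9 of T cells and 6 of the 7 erythroid ones tested fell in the cultured libraries of each genotype. The macrophage list summed to 109.3, 116.0 and 138.6 TPM in WT follicular libraries and to 33.3, 46.1 and 43.9 TPM after culture. In Sh3gl1-/- it went from 258.7, 116.6 and 206.1 TPM to 50.6, 26.1 and 37 TPM. Within this list Adgre1 rose in each genotype while Lyz2 was lower. Zbtb46 of the dendritic list also rose in each, whereas Itgax of that list had 6, 24 and 34 counts before and 0, 0 and 0 after culture in WT. The part of these other cells in the result was not tested.

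**Figure D3:**
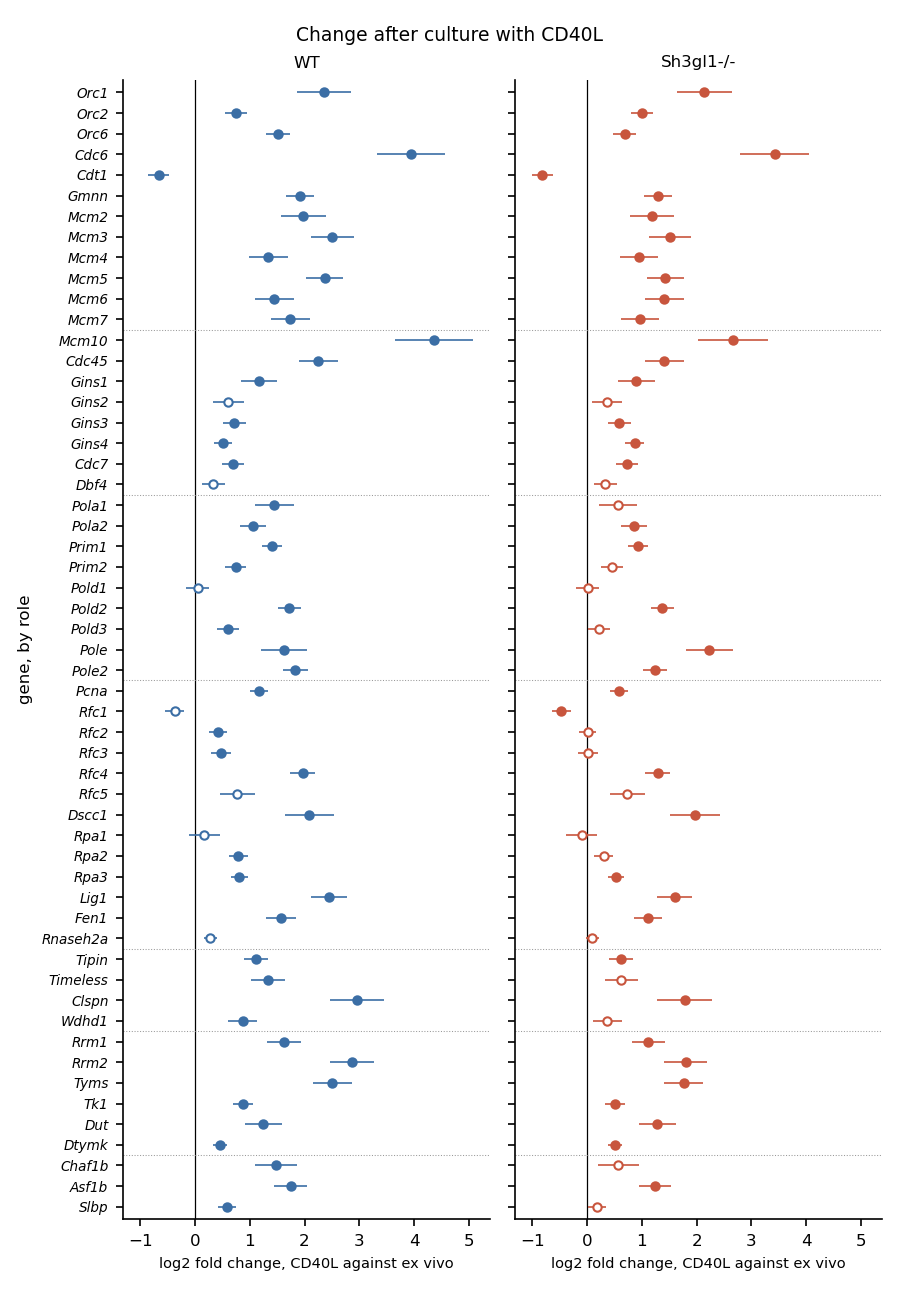
Log2 fold change of each gene after culture with CD40L against ex vivo follicular cells in WT (left) and Sh3gl1-/- (right), with the standard error of the fit as bars; filled points passed an adjusted p under 0.05. Points lie to the right of 0 for 53 genes in WT and 52 in Sh3gl1-/-, with Cdt1 and Rfc1 to the left in both.

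Among the 12 licensing genes, 11 rose and 1 fell in each genotype, also without WT replicate 3. Cdc6, the loader of the Mcm ring, went from 0.69, 2.22 and 1.44 TPM to 7.83, 8.73 and 33.6 TPM in WT and from 0.98, 1.01 and 0.86 to 8.96, 3.73 and 15.3 TPM in Sh3gl1-/-. All cultured libraries were above all ex vivo libraries of the same genotype, with log2 changes of 3.95 (SE 0.62, edgeR adjusted p = 0.00013) and 3.43 (SE 0.63, edgeR adjusted p = 0.00064). The WT change was 2.91 without WT replicate 3, below that of Sh3gl1-/-. Among the genes given below, Mcm2 then had 1.39, Mcm3 1.86, Mcm5 1.80, Orc1 1.64 and Rrm2 2.18 in WT, all still passing. Mcm3, a subunit of the ring, rose by 2.51 (SE 0.39) in WT and 1.51 (SE 0.38) in Sh3gl1-/- on the log2 scale, and Mcm5 by 2.37 (SE 0.34) and 1.43 (SE 0.33). Mcm2 rose by 1.98 and 1.18, Mcm6 by 1.45 and 1.41, Orc1, the largest subunit of the origin recognition complex, by 2.35 and 2.14. Orc2, another subunit, rose 1.68-fold in WT and 2-fold in Sh3gl1-/-. Gmnn, which encodes geminin, the inhibitor of Cdt1, rose by 1.92 and 1.29. Its target moved the other way.

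Cdt1, which brings the ring to the origin with Cdc6, was at 13.4, 10.6 and 10.2 TPM in WT follicular cells and at 5.52, 6.05 and 7.1 TPM after CD40L. In Sh3gl1-/- cells it was at 10.4, 9.84 and 13.1 TPM and then 5.48, 5.09 and 5.92 TPM, so that in either genotype the cultured libraries lay below the ex vivo ones. It fell by 0.66 (SE 0.19, edgeR adjusted p = 0.0098) and 0.82 (SE 0.19, edgeR adjusted p = 0.0034) on the log2 scale. Cdt1 lies within the annotated gene Gm20388 on the same strand, so its reads may have been split with that gene in the estimation of counts.

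Of the 8 genes of origin firing and the active helicase, 6 rose in each genotype. Without WT replicate 3 only Mcm10 and Cdc45 passed in WT, while Cdc7, Gins1, Gins3 and Gins4 did not, and in Sh3gl1-/- the count was still 6. Mcm10, which joins the helicase to polymerase alpha, showed the largest log2 change of the 55 genes in WT, 4.37 (SE 0.71, edgeR adjusted p = 0.00016), from 0.97, 0.16 and 0.43 TPM to 1.75, 3.91 and 14.3 TPM. It rose by 2.66 (SE 0.64) in Sh3gl1-/-, from 1.13, 1.55 and 0.92 TPM to 4.79, 3.86 and 8.6 TPM. It is among the least abundant genes of the class, with 16, 4 and 16 counts in the WT follicular libraries, so the size of its change is imprecise, and without WT replicate 3 it was 3.19 in WT. Cdc45, which completes the helicase, rose by 2.25 (SE 0.36) and 1.41 (SE 0.35), and the kinase gene Cdc7 by 0.70 (SE 0.20) and 0.72 (SE 0.20), whereas Dbf4, the regulatory subunit of that kinase, had 0.33 (SE 0.21) in each genotype and did not pass. Gins2 gave unlike answers on the 2 scales: the log2 ratio of group means was 0.64 on CPM and 2.48 on TPM in WT, with 7.66, 11 and 8.9 TPM before and 30.5, 33.7 and 89.4 TPM after culture. It did not pass the test on counts (log2 change 0.61, SE 0.28, and 0.12 without WT replicate 3). Gins2 overlaps Gm20388 and Gse1 on the opposite strand, and whether counting used the strand is not stated.

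Among the 9 genes of the polymerases and primase, 8 rose in WT and 5 in Sh3gl1-/-, and without WT replicate 3 these were 7 and 6. Prim1, the catalytic primase subunit, went from 26.5, 26.1 and 23 TPM to 50.2, 51 and 81.6 TPM in WT, a log2 change of 1.41 (SE 0.18, edgeR adjusted p = 1.8e-05), and rose by 0.93 (SE 0.18) in Sh3gl1-/-. Pole, the catalytic subunit of polymerase epsilon, rose by 1.62 (SE 0.42) and 2.23 (SE 0.43). Pola1 rose by 1.45 (SE 0.36) in WT and had 0.56 (SE 0.35) in Sh3gl1-/-, which did not pass. Pole had 0.99 and Pola1 0.86 in WT without WT replicate 3, both still passing. Pold1, the catalytic subunit of polymerase delta, stood at 83.3, 80.9 and 75.2 TPM before and 59.2, 65.9 and 61.8 TPM after culture in WT, with a log2 change of 0.05 (SE 0.21) on counts and of -0.11 (SE 0.23) without WT replicate 3. The 2 smaller subunits of that enzyme on the list, Pold2 and Pold3, rose in WT by 1.72 and 0.60, but Pold3 had 0.32 without WT replicate 3 and did not pass.

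Of the 13 genes of the clamp, its loaders, RPA and Okazaki fragment processing, 9 rose in WT, and in Sh3gl1-/- 6 rose and 1 fell. Without WT replicate 3, 7 rose and 1 fell in WT, Rfc2 and Rfc3 no longer passing. Pcna, the sliding clamp, went from 100.1, 93.7 and 90.8 TPM to 159.3, 148.8 and 247.4 TPM in WT and from 104.4, 105.7 and 98 to 149.2, 124.4 and 167.2 TPM in Sh3gl1-/-. Its log2 changes were 1.17 (SE 0.17, edgeR adjusted p = 7.5e-05) and 0.58 (SE 0.17, edgeR adjusted p = 0.014). Lig1, the ligase that joins Okazaki fragments, rose by 2.44 (SE 0.33) and 1.60 (SE 0.32), and Fen1, the nuclease that trims them, by 1.57 (SE 0.27) and 1.11 (SE 0.26). Without WT replicate 3 the WT changes were 1.84 for Lig1, 1.19 for Fen1 and 0.90 for Pcna, all still passing. In Sh3gl1-/- the same fit gave 1.62, 1.12 and 0.59. Rpa3 rose by 0.81 and 0.53, whereas Rpa1, the large RPA subunit, had 0.17 (SE 0.28) and -0.10 (SE 0.28), and in WT -0.17 (SE 0.26) without WT replicate 3, none of which passed.

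Rfc1, the large subunit of the clamp loader, was at 112.3, 125.8 and 126.0 TPM in WT follicular cells and at 62.3, 69.8 and 85.6 TPM after CD40L. The Sh3gl1-/- libraries had 120.2, 127.7 and 128.1 TPM and then 79.9, 79.6 and 87.1 TPM. On counts its log2 change was -0.37 (SE 0.17) in WT, which did not pass, and -0.47 (SE 0.17, edgeR adjusted p = 0.035) in Sh3gl1-/-. In WT it passed with the replicate block within genotype, at -0.40 (SE 0.14, edgeR adjusted p = 0.032), and without WT replicate 3, at -0.61 (SE 0.14, edgeR adjusted p = 0.0029). In the same complex Rfc4 rose by 1.97 in WT. Rfc3 rose by 0.47, but had 0.23 without WT replicate 3 and did not pass.

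Of the 4 genes of fork protection, 4 rose in WT and 2 in Sh3gl1-/-, and without WT replicate 3, where Wdhd1 did not pass in WT and Timeless passed in Sh3gl1-/-, 3 rose in each. Clspn, which encodes the checkpoint mediator claspin, rose by 2.96 (SE 0.50) and 1.78 (SE 0.50), and Tipin by 1.12 (SE 0.22) and 0.62 (SE 0.22). The WT changes were 2.29 for Clspn and 0.77 for Tipin without WT replicate 3, both still passing. Timeless, the partner of Tipin, rose by 1.33 (SE 0.31) in WT and had 0.62 (SE 0.30) in Sh3gl1-/-, which did not pass. It had 0.83 in WT without WT replicate 3 and passed. All 3 genes of chromatin assembly and histone mRNA rose in WT: Asf1b, a histone chaperone, by 1.75, Chaf1b, a subunit of chromatin assembly factor 1, by 1.48, and Slbp, which binds the end of histone mRNAs, by 0.58. All of them still passed without WT replicate 3, Asf1b with 1.20, Chaf1b with 0.82 and Slbp with 0.35. In Sh3gl1-/- only Asf1b of these 3 passed, with 1.24 (SE 0.30), with and without that library.

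All 6 nucleotide supply genes rose in both genotypes, but without WT replicate 3 Dtymk had 0.31 in WT and did not pass. Rrm2, the small and cell-cycle regulated subunit of ribonucleotide reductase, went from 9.54, 10.2 and 7.42 TPM to 33, 36.1 and 96 TPM in WT and from 12.8, 9.03 and 9.21 to 34, 20.2 and 51.2 TPM in Sh3gl1-/-. The log2 changes were 2.87 (SE 0.40, edgeR adjusted p = 5.2e-05) and 1.80 (SE 0.39, edgeR adjusted p = 0.0021). Rrm1, the large subunit, rose by 1.63 and 1.12, and Tyms, thymidylate synthase, by 2.51 and 1.76. Dut, which removes dUTP, rose by 1.25 and 1.28, Tk1, cytosolic thymidine kinase, by 0.87 and 0.51, and Dtymk, which makes dTDP, by 0.45 and 0.51. Without WT replicate 3, Rrm1 rose by 1.18 in WT and 1.13 in Sh3gl1-/-, and Tyms by 1.94 and 1.77.

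The difference in the CD40L response between the genotypes passed for none of the 55 genes, and for 0% of all 14460 genes tested (edgeR; 1278 genes, 2 of them listed, had an unadjusted p under 0.05). Its median over the 55 was -0.41, and it was negative for 49 of 55. A negative value is a smaller rise or a larger fall in Sh3gl1-/-. Without WT replicate 3 the median was -0.09 and 34 of 55 were negative, again with no gene called. The larger median in WT thus moved with that library. With the main filter on low counts, the genes that passed in WT alone are therefore not shown to respond differently in Sh3gl1-/-. A filter of at least 1 count called some listed genes for this difference, and their number is given with the other settings below.

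The next comparison set transitional against follicular cells, both ex vivo. In WT 25 of the 55 genes were higher and 2 lower in transitional cells (edgeR, adjusted over 14580 genes), where 14.2% of all genes were higher and 11.7% lower, with a median log2 difference of 0.37 against -0.03 over all genes. In Sh3gl1-/- 3 were higher and none lower, where 6.71% of all genes were higher and 3.7% lower, with a median of 0.05 against 0.00. Those 3 were Rrm1, Rrm2 and Gins4, a subunit of GINS. With replicate number within a genotype as a block, since same-numbered libraries deviated together here, 6 genes passed in Sh3gl1-/- and 30 in WT, where 13.4% and 29.1% of all genes did. The follicular WT libraries serve both this comparison and the CD40L response in WT, and those of Sh3gl1-/- likewise, so that the values of the 2 comparisons are not independent.

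In WT the genes that passed came from every role: 6 higher and 2 lower of 12 licensing genes, 3 of 8 firing genes, 3 of 9 of the polymerases and primase, 7 of 13 of the clamp group, 1 of 4 fork genes, 3 of 6 nucleotide genes and 2 of 3 chromatin genes, all higher outside licensing. Mcm10 had the largest difference, 3.20 (SE 0.46, edgeR adjusted p = 0.00024), with 3.69, 4.38 and 2.36 TPM in WT transitional cells, and next came Clspn with 2.61 (SE 0.42), from 5.14, 6.2 and 5.64 TPM against 0.74, 2.19 and 0.81 TPM. Rrm2 had 39.5, 43.1 and 46.6 TPM in WT transitional cells against 9.54, 10.2 and 7.42 TPM, a log2 difference of 2.27 (SE 0.16, edgeR adjusted p = 2.5e-06). Rrm1 was higher by 1.09 (SE 0.11) and Tyms by 1.25 (SE 0.17). Cdc6 was higher by 2.03 (SE 0.43), Cdc45 by 1.16 (SE 0.21), Mcm3 by 1.06 (SE 0.13) and Pola1 by 0.95 (SE 0.11).

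At the low end of the same comparison were Cdt1, with 7.13, 8.65 and 7.29 TPM in WT transitional cells against 13.4, 10.6 and 10.2 TPM in follicular cells (log2 difference -0.57, SE 0.18, edgeR adjusted p = 0.031), Orc2 at -0.46 (SE 0.15, edgeR adjusted p = 0.036) and Gins2 at -0.38 (SE 0.14), which did not pass. Cdt1 was thus lower in the WT transitional and in the CD40L libraries than in the WT follicular ones, and the 2 comparisons share the follicular libraries. Rfc1, lower after CD40L in Sh3gl1-/-, was higher in WT transitional cells by 0.27 (SE 0.08). Pcna, with 104.1, 113.7 and 119.1 TPM, differed by 0.21 (SE 0.08), which did not pass.

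Genes of proliferation outside replication moved with this difference. All 10 of that list, among them Top2a, Mki67 and Cdk1, were higher in WT transitional than in WT follicular cells and 5 in Sh3gl1-/- (medians of 2.60 and 0.79), and their summed level was 130.4, 183.6 and 182.6 TPM in WT transitional, 75.5, 64.1 and 76.5 TPM in Sh3gl1-/- transitional, 34.7, 35.3 and 37.1 TPM in WT follicular and 41.5, 40 and 42 TPM in Sh3gl1-/- follicular libraries. Markers of monocytes and macrophages, led by Lyz2, were higher in transitional cells too, 7 of 7 in WT and 6 of 7 in Sh3gl1-/-, with sums of 491.9, 574.6 and 495.5 TPM in WT transitional against 109.3, 116.0 and 138.6 TPM in WT follicular libraries. The list of precursor B cells of the marrow summed to between 2.06 and 8.68 TPM, led by Il7r, but Rag1 of that list had 24, 51 and 8 counts in WT and 15, 36 and 3 in Sh3gl1-/- transitional libraries and none in the 12 follicular ones, and passed as higher in both genotypes. The part of these cells in the result was not tested.

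Between genotypes, calls among the listed genes were made in transitional cells and in neither follicular state, with the main filter on low counts; with a filter of at least 1 count, 4 were called after CD40L. In transitional cells 15 of the 55 genes were lower in Sh3gl1-/- and none higher (edgeR on the 6 transitional libraries, adjusted over 13774 genes), where 2.48% of all genes were lower and 1.26% higher. The median log2 difference was -0.38 against 0.02 over all genes, and 46 of the 55 were negative. In 26 genes all 3 Sh3gl1-/- libraries lay below all 3 WT libraries in CPM, and in none above, where 14.4% and 13.6% of all genes did so. The 15 genes were Mcm3, Mcm4, Mcm5, Mcm7, Mcm10, Pola1, Pold2, Rpa1, Lig1, Fen1, Clspn, Rrm1, Rrm2, Tyms and Asf1b.

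**Figure D4:**
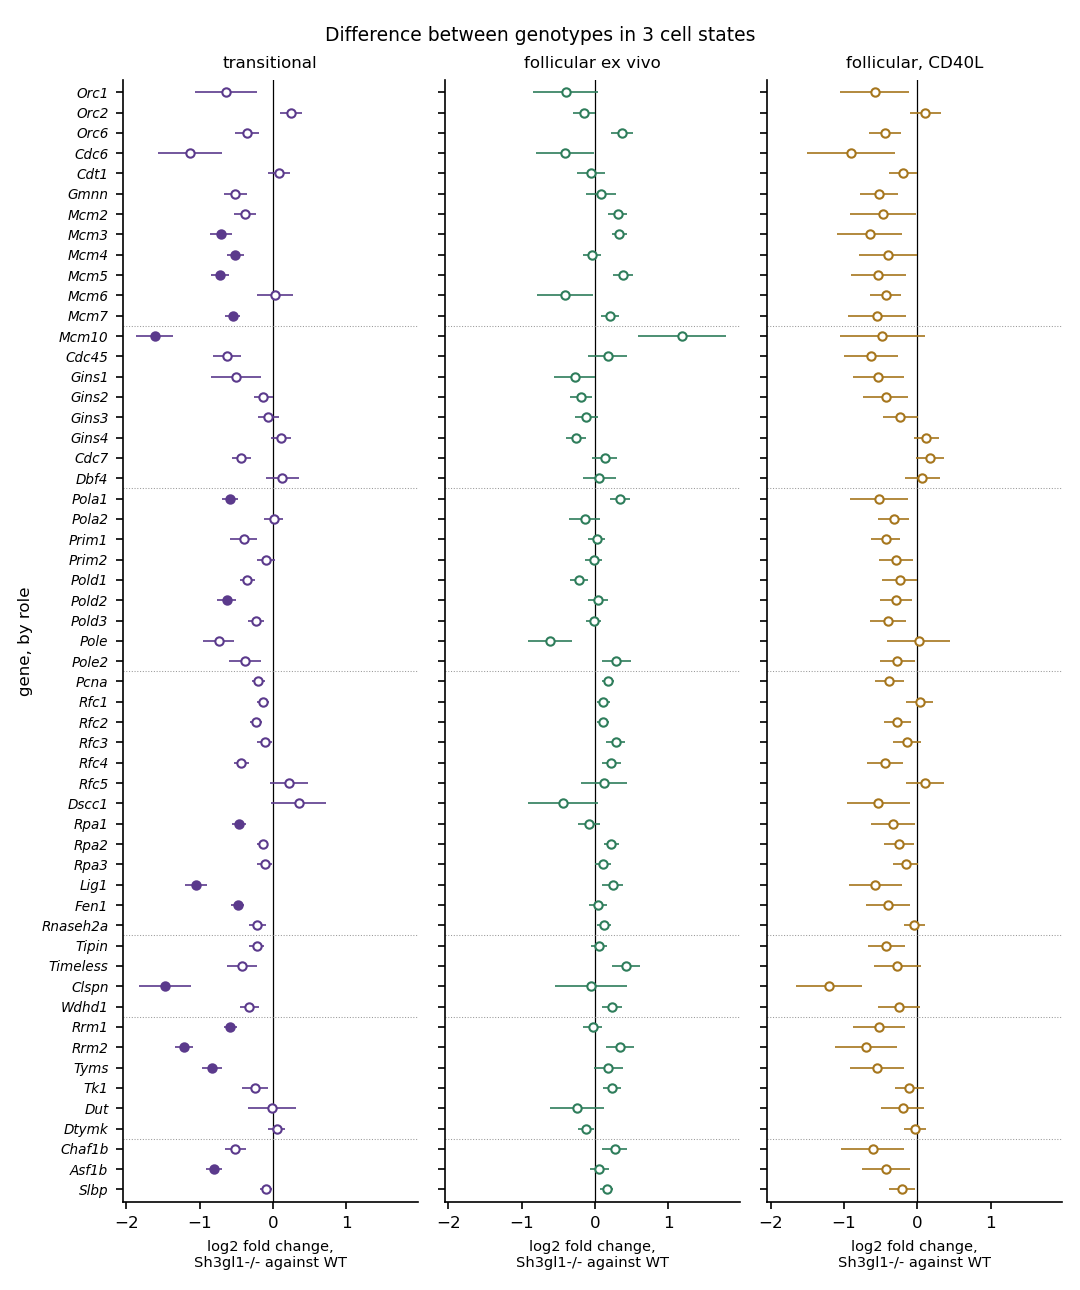
Log2 fold change of each gene, Sh3gl1-/- against WT, in transitional (left), ex vivo follicular (middle) and CD40L-cultured follicular cells (right), with standard errors; filled points passed an adjusted p under 0.05. Filled points occur in the transitional cells only, 15 of them, all left of 0.

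Rrm2 had the smallest p of the class. Its levels were 39.5, 43.1 and 46.6 TPM in WT and 18.4, 17.2 and 17.2 TPM in Sh3gl1-/- transitional libraries, well apart, with a log2 difference of -1.21 (SE 0.12, edgeR adjusted p = 0.0039). The other genes of nucleotide supply that fell were Tyms, from 43.4, 35.4 and 30.6 TPM to 17, 13 and 22.9 TPM (-0.83, SE 0.14, edgeR adjusted p = 0.019), and Rrm1, from 56.3, 55.9 and 48.8 TPM to 34.1, 42.2 and 32.9 TPM (-0.58, SE 0.09, edgeR adjusted p = 0.014). The remaining 3 genes of that role did not pass, with Tk1 at -0.24 (SE 0.18), Dut at -0.01 (SE 0.33) and Dtymk at 0.05 (SE 0.12).

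Lig1 had 24.7, 22.9 and 24.7 TPM in WT and 11.7, 8.87 and 13.4 TPM in Sh3gl1-/-, a log2 difference of -1.05 (SE 0.15, edgeR adjusted p = 0.012). In the same group Fen1 fell by 0.48 and Rpa1 by 0.46, and Pcna had -0.20 (SE 0.09) and did not pass. Of the helicase ring, Mcm5 had 27.5, 35.7 and 33.8 TPM in WT and 18, 19.2 and 18.1 TPM in Sh3gl1-/- (-0.72, SE 0.12, edgeR adjusted p = 0.019), and Mcm3, Mcm7 and Mcm4 fell by 0.71, 0.55 and 0.51. Mcm2 at -0.38 (SE 0.15) and Mcm6 at 0.03 (SE 0.24) did not pass. Nor did the loaders of the ring, Cdc6 at -1.13 (SE 0.43), whose WT libraries had 2.28, 6.09 and 6.91 TPM, Cdt1 at 0.08 (SE 0.15), Orc1 at -0.64 (SE 0.42) and Orc2 at 0.25 (SE 0.15).

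Mcm10 fell by 1.61 (SE 0.25, edgeR adjusted p = 0.018), from 3.69, 4.38 and 2.36 TPM to 1.31, 1.62 and 1.86 TPM, and Asf1b fell by 0.80 (SE 0.11, edgeR adjusted p = 0.013), from 32.9, 34.5 and 34.4 TPM to 21.1, 19.1 and 17.4 TPM. Pola1 fell by 0.59 and Pold2 by 0.63. Clspn lay at the edge of the threshold, with a log2 difference of -1.47 (SE 0.35, edgeR adjusted p = 0.0497), from 5.14, 6.2 and 5.64 TPM to 3.04, 1.86 and 1.74 TPM. Just outside was Rfc4, at -0.43 (SE 0.10). Of the genes with an E2F-type word in their promoter window 6 of 15 fell, and of those without 8 of 30.

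The number of calls in this comparison depended on the fit and on single libraries. With all 18 libraries in 1 fit, 0 of the 55 passed at the same median of -0.38, while DESeq2 gave 19, where 0.953% and 9.88% of all genes passed. Without Sh3gl1-/- replicate 1, 3 genes passed (0.4% of all genes), without Sh3gl1-/- replicate 3, 2 (0.197%), without WT replicate 1, 9 (1.54%), and without WT replicate 2, only Rrm2 (0.358%). Rrm2 passed in 6 of 6 fits that left out a library, Lig1 and Asf1b in 4 of 6. In these settings 46 to 48 of the 55 genes were negative. With 3 libraries against 3, the exact permutation test of a single gene cannot go below p = 0.1, and Rrm2, Lig1 and Mcm5 stood at that smallest value (two-sided).

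Other cells and markers moved with the genotype in transitional cells. Erythroid markers were higher in Sh3gl1-/-, 6 of the 7 tested passing, with the sums given above. The plasma cell list, dominated by Jchain, summed to 643.4, 580.6 and 418.5 TPM in WT and 2519, 1010 and 3932 TPM in Sh3gl1-/- (1 of 6 higher), and the neutrophil list, led by S100a8, to 180.1, 102.7 and 124.1 TPM and 1074, 227.2 and 310.9 TPM (2 of 8 higher). The B-cell markers summed to 11716, 13048 and 13308 TPM in WT and 9266, 11451 and 8430 TPM in Sh3gl1-/-, none of 6 passing, and the transitional markers, led by Vpreb3, to 1645, 1814 and 1904 TPM and 1101, 1553 and 901.9 TPM. The transitional list did not move as one. Cd24a was at 221.3, 281.6 and 277.1 TPM in WT and lower in Sh3gl1-/-, at 129.3, 171.4 and 106.7 TPM. Tmem108 was higher in Sh3gl1-/-, with 24.5, 24.2 and 22.2 TPM against 17.3, 16.8 and 15.4 TPM. Cd93 overlapped, with 14.7, 15.6 and 9.9 TPM against 12.1, 13.4 and 10.7 TPM. The follicular list, led by Ighd, was at 3404, 3950 and 3103 TPM and 4169, 3947 and 4163 TPM. The marginal zone list, led by Cd1d1, summed to 342.3, 294.1 and 302.6 TPM in WT and 203.7, 204.6 and 162.7 TPM in Sh3gl1-/- (1 of 5 lower), and the germinal centre list, led by Bcl6, to 70.1, 74 and 64.4 TPM and 89, 90.6 and 90.7 TPM (1 of 5 tested higher), neither with overlap. Their part in the lower replication genes was not tested. Of the genes of proliferation outside replication, 8 of 10 were lower in Sh3gl1-/- transitional cells and none higher, with a median of -1.33.

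In ex vivo follicular cells none of the 55 genes passed between genotypes, where 0.845% of all 13610 genes did (edgeR; 1481 genes, 6 of them listed, had an unadjusted p under 0.05). The median was 0.08. In 2 genes, Dscc1 and Pole, all Sh3gl1-/- libraries lay below all WT libraries and in 11 above, where 7.97% and 8.07% of all genes did so. Rrm2 had 12.8, 9.03 and 9.21 TPM in Sh3gl1-/- against 9.54, 10.2 and 7.42 TPM in WT, with overlap (log2 difference 0.34, SE 0.19), Lig1 had 16.9, 13.3 and 14.8 TPM against 13.4, 15.8 and 11.3 TPM (0.24, SE 0.14), and Mcm5 17.4, 23.9 and 22.3 TPM against 16.6, 18.1 and 17.1 TPM (0.38, SE 0.13). Lig1 and Mcm5 overlapped on TPM but are among the 11 genes that did not on CPM. The differences of all 55 ran from -0.61 in Pole to 1.19 in Mcm10.

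After CD40L none of the 55 passed either, where 0.0227% of all 13188 genes did (edgeR; 932 genes, 1 of them listed, had an unadjusted p under 0.05). The median was -0.40 with 48 of 55 negative. In Cdt1 and Prim1 all Sh3gl1-/- libraries lay below all WT libraries, and in no gene above, where 7.63% and 6.21% of all genes did so. Without WT replicate 3 the median was 0.04, with 33 positive and 22 negative, so that the sign of the median rested on that library. The proliferation genes outside replication were highest there as well, with a sum of 228.0 TPM against 90.9 and 89.6 TPM in the other WT libraries and 86.1, 53.8 and 120.7 TPM in Sh3gl1-/-.

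Whether the transitional-follicular difference itself depended on the genotype was tested by the interaction over the 12 ex vivo libraries. It passed for 3 of the 55 genes, Rrm2 at -1.54 (SE 0.22, edgeR adjusted p = 0.041), Lig1 at -1.27 (SE 0.20, edgeR adjusted p = 0.041) and Mcm5 at -1.09 (SE 0.18, edgeR adjusted p = 0.045), each with a lower transitional-follicular difference in Sh3gl1-/-. Over all 14580 genes it passed for 10 (0.0686%), of which 7 were negative (0.048%). In WT these 3 genes were higher in transitional cells by 2.27, 0.96 and 0.87, and in Sh3gl1-/- the differences were 0.73 for Rrm2, which passed, -0.31 for Lig1 and -0.22 for Mcm5, which did not. The 55 genes had a median interaction of -0.38 with 43 negative. With replicate number as a block within genotype, 8 of the 55 and 99 of all genes (0.679%) passed. With all 18 libraries in 1 fit 0 of the 55 and 0% of all genes did, and DESeq2 called 15 of the 55 and 2.5% of all genes. Left-out libraries lowered the count of listed genes to 0 in 9 of 12 fits, and in these fits 0% of all genes passed as well. In the other 3 fits, 2 listed genes passed without follicular WT replicate 3 (0.106% of all genes) and 2 without transitional Sh3gl1-/- replicate 2 (0.0668%). Without transitional WT replicate 1, 4 passed (0.154%).

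Rrm2 lies at chr12:24708241-24714146, Lig1 at chr7:13277283-13311433 and Mcm5 at chr8:75109569-75128439, all on the plus strand (GRCm38, GENCODE M21). Rrm2 sets the activity of ribonucleotide reductase in S phase, Lig1 closes the nicks of the lagging strand, and Mcm5 is part of the helicase ring. In all 3, the Sh3gl1-/- transitional libraries lay below every WT transitional library on TPM.

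**Figure D5:**
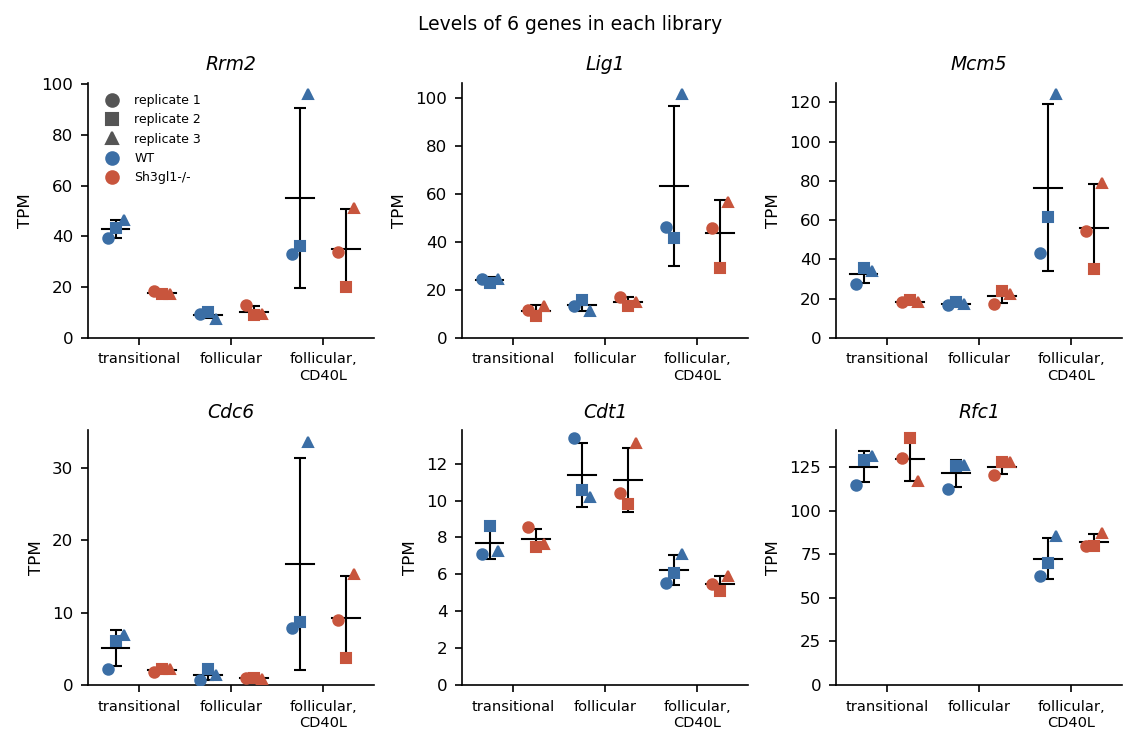
TPM of Rrm2, Lig1, Mcm5, Cdc6, Cdt1 and Rfc1 in each library by cell state, with the mean (line) and SD (bar, n = 3). For the first 3, the WT transitional libraries lie above the Sh3gl1-/- ones; Cdt1 and Rfc1 are lowest after CD40L, whereas the other 4 are highest there in replicate 3 of WT.

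Further genes of the pathway, outside the 55, were taken from lists by function. The CD40L values of these lists include WT replicate 3 and are not given here without it. Of 35 other replication genes, 17 rose and 2 fell with CD40L in WT and 15 and 2 in Sh3gl1-/-, against the background shares given above, with medians of 0.56 in each. Uhrf1, which carries DNA methylation through replication, rose by 4.01 (SE 0.44) and 3.60 (SE 0.44), and Chek1, the S-phase checkpoint kinase, by 3.84 (SE 0.50) and 2.30 (SE 0.47), while Mcmbp, a binding partner of the Mcm ring, fell by 0.62 and 0.63, each with an SE of 0.11. In transitional cells 3 of the 35, Chaf1a, Uhrf1 and Ssrp1, were lower in Sh3gl1-/-, by 2.05, 0.91 and 0.51. Over all genes 2.48% were lower in that comparison. Chaf1a (chr17:56040439-56072289) and Uhrf1 (chr17:56303321-56323486) lie close to the deleted Sh3gl1 (chr17:56016750-56036635, GRCm38), and the part of this position in their difference was not tested. None of the 55 genes lies on chromosome 17. Transitional against follicular, 9 were higher and 6 lower in WT, where 14.2% and 11.7% of all genes were, and 1 and 2 in Sh3gl1-/-, where 6.71% and 3.7% were.

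The salvage and supply list of deoxynucleotides, with 14 of 15 genes tested, had 7 that rose and 4 that fell with CD40L in each genotype, where 23.6% and 25.7% of all genes did so in WT and 20.6% and 21.8% in Sh3gl1-/-. Nme1, a nucleoside diphosphate kinase, rose by 1.80 and 1.24, each with an SE of 0.10, and Shmt1, an enzyme of folate-dependent carbon-unit metabolism, by 2.16 and 1.59, each with an SE of 0.25. Those that fell were Samhd1, which breaks down deoxynucleotides, by 2.40 (SE 0.13) and 2.17 (SE 0.13), the mitochondrial thymidine kinase Tk2 by 2.62 and 2.26, deoxycytidine kinase Dck by 1.27 and 1.28, and Rrm2b, the reductase subunit of resting cells, by 1.15 and 0.87. None of the 14 passed between genotypes in transitional cells. Rrm2b was higher in transitional cells in both genotypes, by 0.96 and 0.78, each with an SE of 0.12.

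Of 17 genes of purine and pyrimidine synthesis, 13 rose and 2 fell with CD40L in WT, and 13 rose and 1 fell in Sh3gl1-/-. Over all genes 23.6% rose and 25.7% fell in WT, and 20.6% rose and 21.8% fell in Sh3gl1-/-. Impdh2, the limiting enzyme of guanine nucleotide synthesis, rose by 1.97 (SE 0.14) and 1.48 (SE 0.13), and Ctps, CTP synthase, by 1.73 and 1.60, each with an SE of 0.22, whereas its paralogue Ctps2 fell by 0.91 and 0.83, each with an SE of 0.12. In transitional cells Gart and Adsl, enzymes of purine synthesis, were lower in Sh3gl1-/- by 0.56 and 0.42. Among 16 E2F and pocket protein genes, 6 rose and 4 fell with CD40L in WT and 3 and 3 in Sh3gl1-/-, where 23.6% and 25.7% of all genes did so in WT and 20.6% and 21.8% in Sh3gl1-/-. Rb1, the retinoblastoma gene, fell by 1.34 and 0.80, each with an SE of 0.16, and the E2F partner Tfdp1 rose by 1.79 and 1.43, each with an SE of 0.26. In transitional cells E2f2 and E2f8 were lower in Sh3gl1-/-, by 0.96 (SE 0.13) and 1.81 (SE 0.41).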

How the data were processed

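RNA-seq of polyadenylated RNA from 18 B-cell libraries, 6 groups of 3, was analysed from the table the authors deposited. Per the labels the libraries were stranded. The submitters' processing notes name cutadapt 1.9.1, STAR 2.5.2a, RSEM 1.3.0 and the build GRCm38; the study's methods name other tools and another library kit, and whether counting used the strand is not stated. The authors deposited RSEM estimated counts per gene, not normalised, together with TPM and FPKM, which are scaled by gene length and library size. TPM was used for levels, and FPKM for an alternative summed level.

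Expected counts were rounded and tested with edgeR 4.0.16 (R 4.3.3, limma 3.58.1; TMM scaling, filterByExpr by group, quasi-likelihood test, Benjamini-Hochberg adjustment over all genes tested, threshold 0.05). CD40L responses and transitional-follicular differences, with their interactions, were fitted on 12 libraries each and genotype differences on 6, giving 9 comparisons. The SE is the log2 change divided by the square root of F. CPM used TMM-scaled library sizes. Tests were checked on simulated data, and the outcome is not reported here. Alternatives were DESeq2 1.42.0, RLE size factors, all 18 libraries together, filters of at least 1 count or of 10 counts in 3 libraries, a replicate block, and leaving out each library.

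Replicate pairs differed by more than sampling noise, with chi-square per degree of freedom of 9.88 to 52.4. The samples are labelled as separate, and p-values measure the spread between them. The detection floor covers counting error only. Same-numbered libraries of 1 genotype deviated together, with correlations of 0.103 to 0.242 between transitional and follicular WT, 0.115 to 0.263 in Sh3gl1-/-, and 0.136 to 0.224 between follicular and CD40L-cultured WT; in Sh3gl1-/- the latter ran from 0.030 to 0.119. Where the number comes from is not given, and the block within genotype was chosen after seeing these values. A legend of the study names 3 mice per genotype for RNA-seq of follicular cells. Whether libraries of different cell states came from the same mice is not given, and the main fits treat them as independent.

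Members and lists were chosen with earlier results of these data known. Genes were named by role, by passing a genotype or interaction test, and by the 3 largest and 3 smallest changes in the WT contrasts; other genes named, the pathway examples included, were chosen after their values were seen. The result of 1 gene of the pathway lists is not reported here.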

Additional observations from a re-analysis of the deposited data

Results flagged for a closer look

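In 3 genes the difference between transitional and follicular cells itself differed between the genotypes by the interaction test (edgeR, adjusted over all genes tested). The interaction was -1.54 for Rrm2, -1.27 for Lig1 and -1.09 for Mcm5 on the log2 scale. In Sh3gl1-/- the difference was lower in each, and for Lig1 and Mcm5 it was below 0 without passing. Groups of 3 libraries are too small for the test of single outlying libraries.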

How the results depend on the processing

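Calls depended on the fit more than directions did. Each change of a named gene that had passed was fitted again under every setting. Of these repeats 706 kept direction and side of the threshold and 42 no longer passed; with 1 library left out these were 1075 and 143, and none of the repeats reversed. For the CD40L response difference, DESeq2 called 37 of all genes, and a filter of at least 1 count 210, of them 9 listed. Between genotypes in follicular cells, DESeq2 called 355 genes, all 18 libraries 49, at least 1 count 602 and the replicate block 212. In transitional cells DESeq2 called 1361, all 18 libraries 144, at least 1 count 1426 and the replicate block 90; the listed genes called were 0 with all 18 libraries and 4 with the block. After CD40L, DESeq2 called 79, all 18 libraries 82, at least 1 count 216 (4 listed) and the block 21. Between genotypes the numbers do not pair the libraries, with correlations from -0.087 to 0.101. Transitional against follicular, all 18 libraries called 17 listed genes in WT and 0 in Sh3gl1-/-. In Sh3gl1-/- DESeq2 called 7 of the listed genes, at least 1 count 6, the replicate block 5 and the block within genotype 6. The block within genotype called 13.4% of all genes there. For the other settings of this comparison the share over all genes is not given here, so these counts are not set against a background. For the interaction, DESeq2 called 365 genes (15 listed), all 18 libraries 0 (0), at least 1 count 462 (14), the replicate block 20 (5) and the block within genotype 99 (8). The blocks moved no other count of calls by over 1.5 times. The cause of these differences was not tested.

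With 1 library left out, the genes called and the listed genes among them ran from 5981 to 7296 and 40 to 51 for the CD40L response in WT, 5080 to 6548 and 29 to 41 in Sh3gl1-/-, and 0 to 1 and 0 to 0 for their difference. For the genotype they ran from 32 to 112 and 0 to 0 in follicular, 28 to 479 and 1 to 12 in transitional, and 1 to 9 and 0 to 0 in cultured cells. Transitional against follicular, they ran from 2444 to 3773 and 20 to 28 in WT, 986 to 1647 and 2 to 4 in Sh3gl1-/-, and 0 to 23 and 0 to 4 for the interaction. Depth limits the least abundant genes, such as Mcm10, most.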
